A study of Homo sapiens with 6 samples.

Results

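The AP-1 transcription factor genes and a set of immediate early stress genes were followed in HCT116 cells, a human colorectal cancer epithelial cell line, after knockdown of PNO1, a protein needed to mature the small ribosomal subunit. The set held 10 genes: JUN, JUNB, JUND, FOS, FOSL1, FOSL2, ATF3, EGR1, IER3 and JDP2. Every probe set whose only platform gene symbol was a member was taken, which gave 38 of the 49293 probe sets that are not controls, and all 10 genes among 18132 with such a probe set. The sh-PNO1 group (3 samples) carried a lentiviral short hairpin RNA (shRNA) directed at PNO1, and the sh-Ctrl group (3 samples) carried a lentiviral control shRNA, both collected 72 h after transduction. RNA of each sample went onto 1 Affymetrix array. The labels give neither how many hairpins were used against PNO1 nor whether the replicates are separate cultures. The p-values below therefore reflect no more than the variation among these arrays, and that may be technical.

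AP-1 is a family of dimers built from basic leucine zipper (bZIP) proteins. JUN proteins pair with each other, with FOS proteins or with ATF proteins, whereas FOS proteins need a partner from another group to bind DNA. The dimers bind a short palindrome, the AP-1 site, or the longer cyclic AMP response element (CRE). Many of these genes are immediate early genes, transcribed within minutes of a growth factor or stress signal without new protein synthesis, and JUN protein is activated through phosphorylation by the JUN N-terminal kinases.

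PNO1 itself had intensities of 105, 108 and 105 on the sh-PNO1 arrays, against 535, 535 and 532 on the sh-Ctrl arrays (brightest probe set), so 19.8% of the control signal was left, and its other probe sets kept 28.7% and 29.1%. Among 8 epithelial markers fixed as a list, EPCAM, KRT8, KRT18 and KRT19 averaged 1908, 2012, 2412 and 3000 in sh-PNO1 and 1998, 1878, 2469 and 2329 in sh-Ctrl, and 2 of the 8 rose (KRT19 and CDH1), while the intestinal markers CDX2, CDX1 and VIL1 averaged 67.2, 23.0 and 4.38 in sh-PNO1 and 63.3, 23.0 and 4.88 in sh-Ctrl. The summed intensity of 11 markers of blood, endothelium, fibroblasts, liver and glia was 202 to 208 in sh-PNO1 and 190 to 198 in sh-Ctrl, with COL1A1 at 15.8 and 15.1 and PTPRC at 3.65 and 3.79. Of the 11, only GFAP passed (log2 difference 0.24, adjusted p = 0.0487), none is at 0 in these values, and the part of these markers in the results was not tested. In RNA from a whole culture, fewer cells with a transcript and less transcript per cell cannot be told apart. The log2 gap between the 3′ and 5′ probe sets of ACTB, a measure of RNA quality, was 1.79, 2.25 and 1.73 on sh-PNO1 arrays 1 to 3 and 1.82 to 1.87 in sh-Ctrl, so sh-PNO1 replicate 2 stood apart. The same gap for GAPDH was −0.06, −0.08 and −0.06 in sh-PNO1 and −0.03, −0.02 and −0.01 in sh-Ctrl, where the groups did not overlap, and the part of RNA quality in the results was not tested.

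The members went different ways. JUN, FOSL2, ATF3 and EGR1 rose, IER3 and JDP2 fell, JUND fell by a margin that did not hold throughout, and JUNB and FOS stayed within the spread between arrays. Of the 38 probe sets, 16 (42.1%) passed as higher in sh-PNO1 and 5 (13.2%) as lower in limma at an adjusted p under 0.05. Over all 49293 probe sets these shares were 14.8% higher and 13.2% lower. The members were chosen with earlier results of these data known, so setting their shares beside those of all probe sets or genes is no test of the set. The 16 came from 4 genes, and probe sets of the same gene share a target, so they are not separate observations. In 23 member probe sets (60.5%) no sh-PNO1 value fell within the range of the sh-Ctrl values or the reverse, against 40.2% of all probe sets. The median log2 difference, sh-PNO1 minus sh-Ctrl, was 0.12 over the member probe sets and 0.01 over all probe sets. With each gene represented by its brightest probe set, 4 of 10 members were higher and 3 lower, against 20.0% and 14.2% of all genes. The median over these 10 genes was 0.002, against 0.03 over all genes. The count of lower probe sets was 3 when sh-PNO1 replicate 1 or 2 or sh-Ctrl replicate 1 or 2 was left out, as JUND and FOSL1 then lost their calls.

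**Figure D1:**
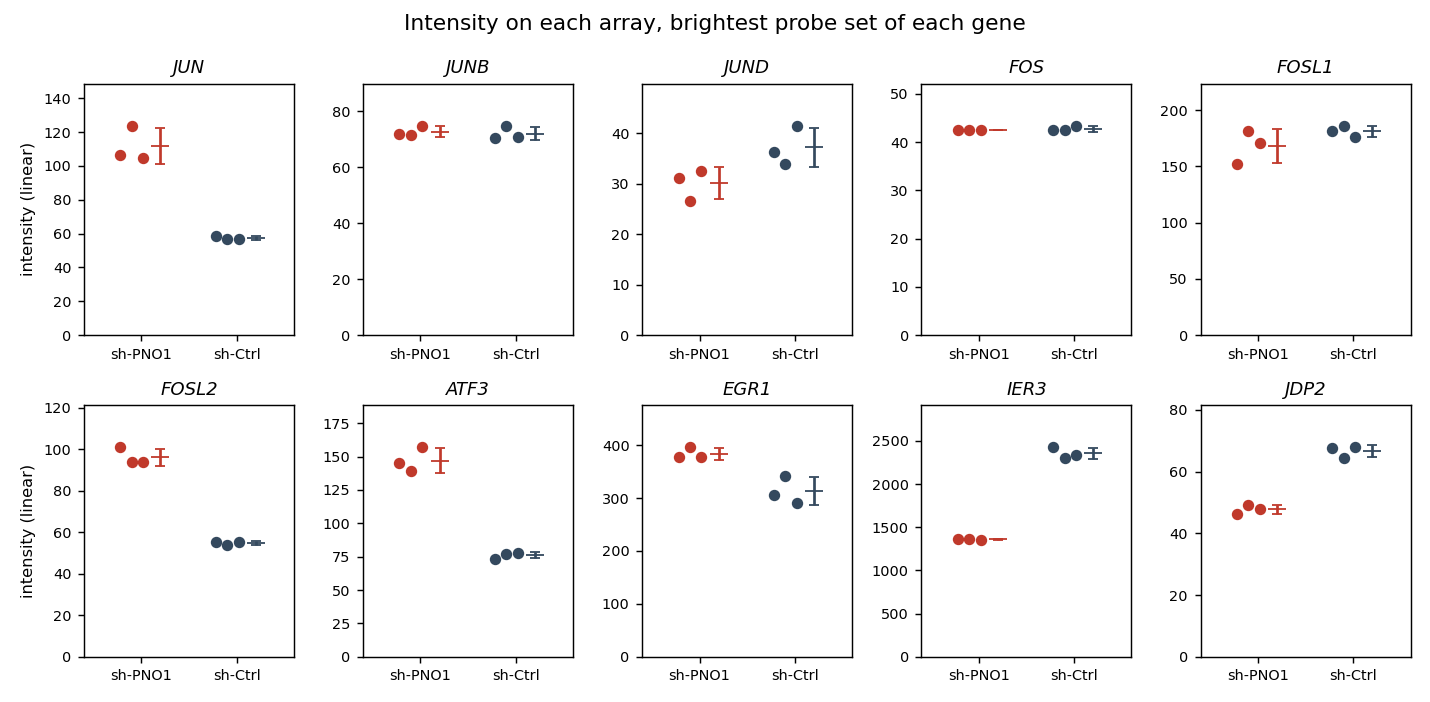
Intensity (linear scale, axis from 0) of the brightest probe set of each member, 1 point per array, with the sh-PNO1 arrays left of the sh-Ctrl arrays. Bars give the mean and SD (n = 3). JUN, FOSL2, ATF3 and EGR1 lay higher and IER3, JDP2 and JUND lower in sh-PNO1, without overlap, while JUNB, FOS and FOSL1 overlapped. Heights should not be compared between panels, since probe sets differ in brightness.

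The promoters of the 4 genes that rose are shown because they moved in the same direction, with that of FOS, which did not pass, beside them. RefSeq windows of build GRCh38.p14 were found for 8 of the 10 members, and the 250 bases before the annotated start site are printed 5′ to 3′ on the gene's strand. Capitals mark matches on either strand to TGACATCA (here the JUN octamer), TGANTCA (the AP-1 heptamer), TGACGTCA (the CRE octamer), TGACGT (the CRE core, which the CRE octamer contains) and the CArG box, the site of serum response factor. The windows are JUN at chr1:58784048-58784297 on the minus strand, ATF3 (the first of 2 annotated starts) at chr1:212565157-212565406, FOSL2 at chr2:28392608-28392857, EGR1 at chr5:138465229-138465478 and FOS at chr14:75278578-75278827, all 4 on the plus strand.
JUN: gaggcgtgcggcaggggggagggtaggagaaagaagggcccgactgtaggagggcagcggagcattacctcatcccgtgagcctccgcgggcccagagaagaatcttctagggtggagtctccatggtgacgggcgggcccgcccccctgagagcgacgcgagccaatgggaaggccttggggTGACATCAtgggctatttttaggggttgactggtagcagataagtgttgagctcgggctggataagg
ATF3: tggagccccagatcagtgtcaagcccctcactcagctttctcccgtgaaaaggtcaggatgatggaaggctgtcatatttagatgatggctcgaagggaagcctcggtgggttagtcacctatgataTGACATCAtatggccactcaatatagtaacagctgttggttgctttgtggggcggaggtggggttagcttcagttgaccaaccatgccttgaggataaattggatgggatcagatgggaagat
FOSL2: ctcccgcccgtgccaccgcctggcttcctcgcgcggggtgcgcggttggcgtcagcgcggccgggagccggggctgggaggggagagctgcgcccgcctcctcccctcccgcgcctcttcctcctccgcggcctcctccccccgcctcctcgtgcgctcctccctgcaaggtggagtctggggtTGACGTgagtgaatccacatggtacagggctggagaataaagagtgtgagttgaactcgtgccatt
EGR1: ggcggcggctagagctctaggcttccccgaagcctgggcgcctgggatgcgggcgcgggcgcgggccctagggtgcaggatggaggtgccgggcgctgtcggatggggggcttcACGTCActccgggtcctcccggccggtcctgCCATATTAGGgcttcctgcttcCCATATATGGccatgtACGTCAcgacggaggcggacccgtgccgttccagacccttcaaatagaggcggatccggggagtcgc
FOS: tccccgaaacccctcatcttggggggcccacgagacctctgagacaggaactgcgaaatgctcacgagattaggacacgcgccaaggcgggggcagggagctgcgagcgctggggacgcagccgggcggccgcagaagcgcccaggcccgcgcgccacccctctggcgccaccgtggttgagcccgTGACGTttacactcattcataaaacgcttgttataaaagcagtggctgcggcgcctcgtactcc

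JUN and ATF3 both held the octamer TGACATCA, at -67 to -60 in JUN and at -123 to -116 in ATF3, and neither of these windows held another of the motifs searched. The window of the second ATF3 start held none. Which ATF3 start these cells used was not tested, so the printed window may not be the promoter behind the measured transcript. This octamer was present in 2.61% of all 35116 RefSeq windows, counted over 250 bases before and 50 after the start. It was entered in the search as a motif named after JUN, so its match in JUN should not be read as a finding. EGR1 held 2 CArG boxes (1.29% of windows have at least 1) and 2 CRE cores (7.98%). FOSL2 and FOS each held a CRE core, at -66 to -61 and at -64 to -59, and FOSL2 also held an AP-1 heptamer after the start site, at 5 to 11 (7.71% of windows). JUND, which is not printed, held a CRE octamer at -200 to -193 (1.85%), with a separate CRE core at -87 to -82. JDP2 held a CRE core in 1 of 3 windows, at -97 to -92, and JUNB held none of the 5 motifs. Sequence more than 250 bases before a start site was not searched. A gene without a match here, such as FOS for the CArG box, may hold one there. A match is a run of letters and does not show that a factor binds there, and the part of these motifs in the results was not tested.

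**Figure D2:**
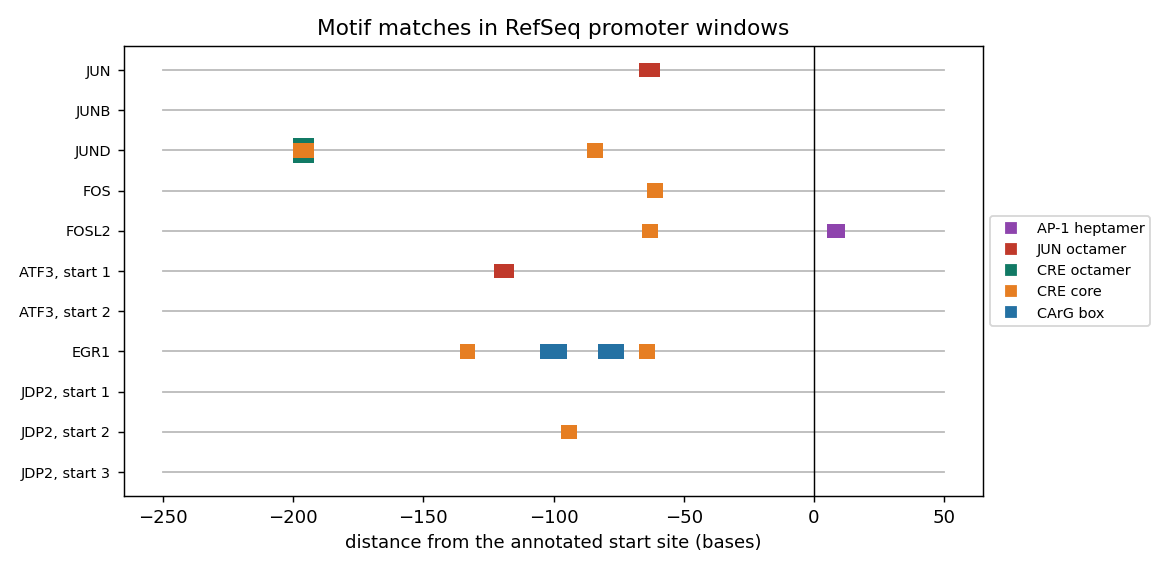
Motif matches on either strand in the RefSeq windows of 8 members, against the distance in bases from the annotated start site (vertical line at 0). JUN and the first ATF3 start each carry a JUN octamer (red) before the start site, and EGR1 carries 2 CArG boxes (blue); a CRE core inside the CRE octamer of JUND is drawn on top of it.

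Among the JUN proteins, JUN (gene 3725) rose, and JUNB and JUND did not rise. Its brightest probe set read 107, 124 and 104 in sh-PNO1, against 58.5, 56.7 and 56.7 in sh-Ctrl. All 3 sh-PNO1 arrays lay far above the sh-Ctrl arrays, a ratio of 1.94 (log2 difference 0.96 ± 0.07 SE, limma adjusted p = 4.11e-05). Next in brightness, a probe set read 98.2, 106 and 92.8 in sh-PNO1 and 44.7, 43.2 and 42.8 in sh-Ctrl, a ratio of 2.27, and was the only member probe set past a 2-fold change. The remaining pair rose by 0.98 ± 0.11 and 0.54 ± 0.11 (log2, SE; adjusted p = 0.000366 and 0.00787). Only the brightest of the 4 lacked the suffixes _s_at and _x_at, which mark probe sets that can also match other transcripts. In all 4 probe sets the highest value was that of sh-PNO1 replicate 2, the array with the larger ACTB difference. Without that array the 4 differences were 0.88, 1.13, 0.91 and 0.41, with adjusted p-values of up to 0.00957.

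JUNB (gene 3726), a JUN relative often induced by the same signals, had 1 probe set with 71.8, 71.5 and 74.9 in sh-PNO1 and 70.6, 74.9 and 70.6 in sh-Ctrl. The groups overlapped (log2 difference 0.01 ± 0.05 SE, adjusted p = 0.853). JUND (gene 3727), the JUN gene that most cells express without stimulation, read 31.2, 26.6 and 32.6 in sh-PNO1 and 36.2, 33.9 and 41.5 in sh-Ctrl. The groups did not overlap, and the difference passed narrowly (log2 difference −0.31 ± 0.10 SE, limma adjusted p = 0.0477). The call was lost on leaving out any of the 6 arrays (adjusted p up to 0.15) and after adding 16 to every intensity. Both JUNB and JUND were measured only by a probe set of the suffix _x_at, which can also match other transcripts.

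The FOS proteins differed among themselves. FOS (gene 2353), the prototype immediate early partner of JUN, did not pass in any of its 4 probe sets, whose log2 differences ran from −0.06 to 0.08. Its brightest probe set, of the suffix _s_at, read 42.4 on all 3 sh-PNO1 arrays and 42.4, 42.4 and 43.5 on the sh-Ctrl arrays. The exact same deposited value stood on 5 of the 6 arrays. Values repeated exactly within a group occurred in 7 member probe sets and in 26.2% of all probe sets. Where they occur the spread between arrays may be understated, which was not tested.

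FOSL2 (gene 2355, also called FRA2), a FOS relative with slower kinetics, rose in 4 of 5 probe sets. The brightest read 101, 93.9 and 93.9 in sh-PNO1 and 55.6, 53.7 and 55.6 in sh-Ctrl, a ratio of 1.75 (log2 difference 0.81 ± 0.05 SE, adjusted p = 1.75e-05). The other 3 that passed rose by 0.30 to 0.69, and the dimmest stood at 0.21 (adjusted p = 0.193). The third probe set read 36.2, 52.7 and 33.2 in sh-PNO1 and 24.6, 24.8 and 24.9 in sh-Ctrl, so sh-PNO1 replicate 2 was again the highest; without it the difference was 0.48, against 0.69. With all probe sets averaged FOSL2 rose by 0.52 (adjusted p = 2.57e-05).

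FOSL1 (gene 8061, also called FRA1), a FOS relative tied to ERK signalling in carcinoma cells, passed in 1 of 6 probe sets. The brightest, of the suffix _s_at, read 152, 182 and 171 in sh-PNO1 and 181, 186 and 176 in sh-Ctrl, with overlapping groups (log2 difference −0.11 ± 0.07 SE, adjusted p = 0.28). The probe set that passed was the fourth in brightness, at 69.8, 68.1 and 73.0 in sh-PNO1 and 78.7, 84.6 and 77.6 in sh-Ctrl (log2 difference −0.19 ± 0.05 SE, adjusted p = 0.0279). This call was lost in 6 of 15 alternatives, with an adjusted p of up to 0.0866. The 6 probe sets ran from −0.19 to 0.08, and their mean stood at −0.06 (adjusted p = 0.268).

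Of the ATF-type partners, ATF3 rose and JDP2 fell. ATF3 (gene 467) encodes a stress-induced bZIP protein that pairs with JUN and can repress transcription, and 4 of its 7 probe sets passed as higher. The brightest read 145, 139 and 157 in sh-PNO1 and 73.6, 76.7 and 77.8 in sh-Ctrl, a ratio of 1.93 (log2 difference 0.95 ± 0.06 SE, adjusted p = 1.73e-05). The second and the third brightest rose less, by 0.58 ± 0.08 and 0.29 ± 0.07 (log2, SE). The third lost its call without sh-PNO1 replicate 1 or 3 or sh-Ctrl replicate 1 or 2 (adjusted p up to 0.0632). The 4 dimmest had sh-Ctrl means of 12.5 or less and ran from 0.10 to 0.45. Averaged over the 7, ATF3 rose by 0.38 (adjusted p = 0.000259), well under the value of its brightest probe set.

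JDP2 (gene 122953), the JUN dimerization protein that competes with activating partners, fell in 2 of 3 probe sets. The brightest read 46.4, 49.1 and 47.8 in sh-PNO1 and 67.5, 64.5 and 67.9 in sh-Ctrl, which left 71.7% of the control signal (log2 difference −0.48 ± 0.05 SE, adjusted p = 0.000168). The second read 46.4, 43.3 and 47.8 in sh-PNO1 and 67.1, 64.5 and 69.9 in sh-Ctrl (log2 difference −0.55 ± 0.05 SE). On 3 of 6 arrays these probe sets held exactly the same value. Such equality also occurred between genes, as the second JDP2 probe set and 1 of FOSL1 shared a value on sh-PNO1 replicate 2 (43.3). Whether the JDP2 probe sets measure the transcript separately was not tested. The third was dim, with a mean of 7.61 in sh-PNO1 and 8.27 in sh-Ctrl, and did not pass (−0.12, adjusted p = 0.267).

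The remaining members are immediate early genes outside the bZIP family. EGR1 (gene 1958), a zinc finger transcription factor induced through serum response factor, rose by a small amount in 4 of 6 probe sets. The brightest, of the suffix _s_at, read 377, 396 and 377 in sh-PNO1 and 306, 342 and 291 in sh-Ctrl. The groups did not overlap, and the ratio was 1.23 (log2 difference 0.30 ± 0.07 SE, adjusted p = 0.0107). The second read 294, 282 and 289 in sh-PNO1 and 230, 253 and 233 in sh-Ctrl, a log2 difference of 0.28. The third (0.20) lost its call without sh-PNO1 replicate 1 or 2 or sh-Ctrl replicate 1 or 3, with an adjusted p of up to 0.07. The fifth (0.28) lost it without sh-PNO1 replicate 1 or 3 or sh-Ctrl replicate 1 or 3 (adjusted p up to 0.131), and with the replicate number as a block (adjusted p = 0.0686). With all probe sets averaged EGR1 stood at 0.19 (adjusted p = 0.0109).

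IER3 (gene 8870), a stress-inducible gene that affects cell survival and ERK signalling, fell on its only probe set, of the suffix _s_at, which can match several transcripts. It read 1359, 1364 and 1354 in sh-PNO1 and 2426, 2301 and 2342 in sh-Ctrl, so that 57.7% of the control signal was left (log2 difference −0.79 ± 0.04 SE, adjusted p = 1.15e-05). The groups stood far apart, and the call held in all 14 alternatives in which the probe set was tested, with differences of −0.81 to −0.76. It was the only member probe set brighter than all 23 background probe sets, whose mean intensities ran from 2.53 to 773 with GC content. The second highest of these background means was 207. The brightest probe sets of the other members exceeded from 18 (FOS and JUND) to 22 (EGR1) of the 23. Member and background probe sets were not matched by GC content, so for these members the signal above background could not be judged. The change of a dim probe set can be understated.

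**Figure D3:**
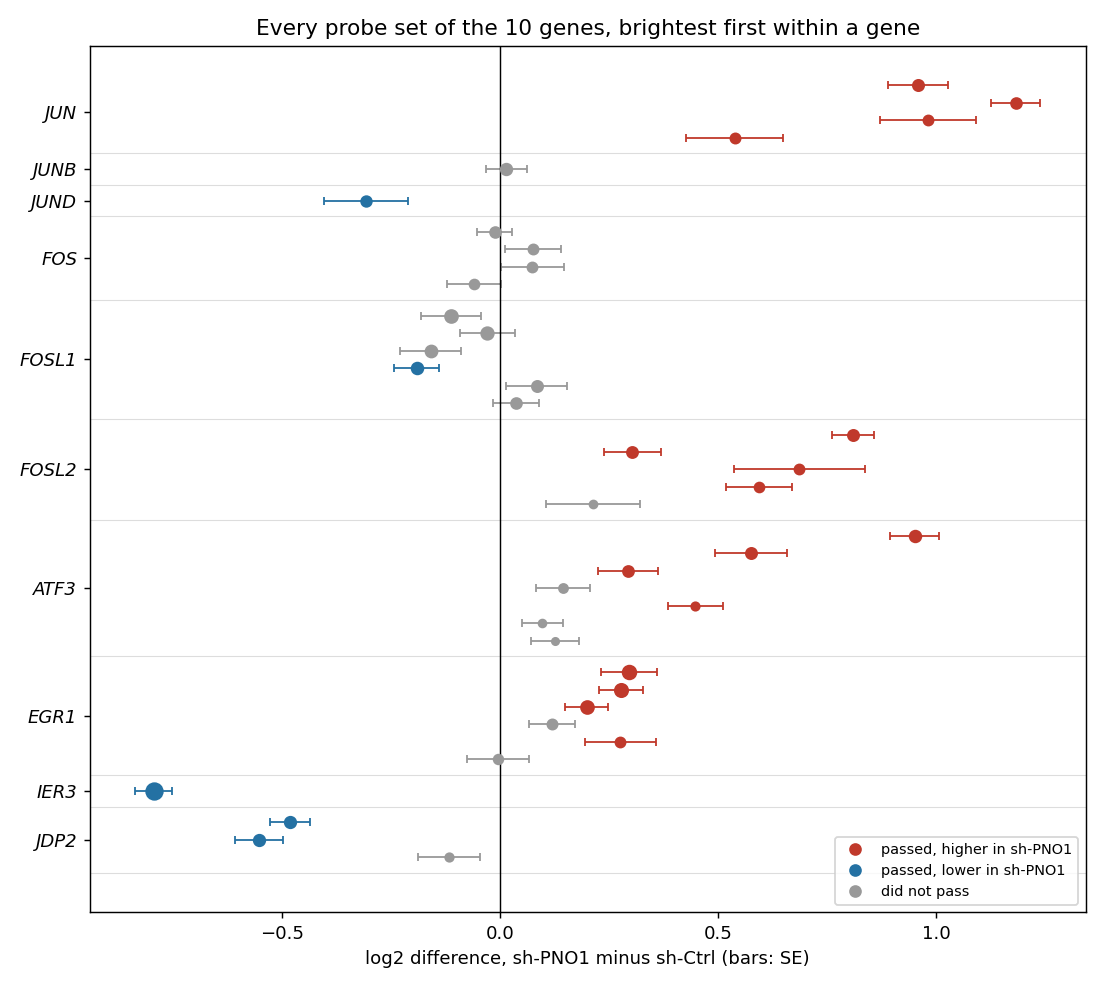
Log2 difference, sh-PNO1 minus sh-Ctrl, of each of the 38 probe sets, with limma standard errors; larger points are brighter probe sets. Red points passed as higher (16), blue as lower (5) and grey did not pass (17). The 4 probe sets of JUN all lie right of 0, those of FOS lie on both sides of 0, and those of ATF3 spread from 0.10 to 0.95.

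Whether JUN changed unequally to the other members was asked within each array, by subtracting each member's log2 value from that of JUN. The difference between groups (sh-PNO1 minus sh-Ctrl, brightest probe sets, with the SD within groups) was 1.75 ± 0.09 against IER3, 1.44 ± 0.08 against JDP2, 1.26 ± 0.23 against JUND, 1.07 ± 0.08 against FOSL1, 0.97 ± 0.10 against FOS, 0.94 ± 0.12 against JUNB and 0.66 ± 0.11 against EGR1. In these 7 of 9 pairs the groups did not overlap, and the exact two-sided permutation test gave p = 0.1. That is the smallest that 3 arrays against 3 allow (adjusted over the 9 pairs, 0.129), so the design cannot pass a threshold of 0.05. All 9 pairs hold the same JUN values, so they are not separate observations. Each difference follows from the changes of JUN and of the other member given above. How often JUN minus any other gene sets the groups apart was not counted over all genes. Against FOSL2 the difference was 0.15 ± 0.12 and the groups overlapped (exact permutation p = 0.2), and against ATF3 it was 0.01 ± 0.16 (p = 0.9). These 2 values depended on the probe sets used. With all probe sets of a gene averaged they were 0.39 and 0.54 and the exact permutation p was 0.1.

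The genes whose profile over the 6 arrays lay nearest to that of JUN were COPS8, a subunit of the COP9 signalosome, SEMA7A, a semaphorin, and APOBEC3B, a cytidine deaminase. Likeness was the root mean square distance between centred log2 values, which was 0.05, 0.07 and 0.07. Nearest to IER3 were TUBB4B, a tubulin, SECISBP2, a protein needed to insert selenocysteine, and COPS7A, another COP9 signalosome subunit, at 0.03 each. With 2 groups of arrays such a distance mostly reflects an equal difference between the groups.

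The other genes of the pathway were read as lists, with the brightest probe set for each gene and the shares of 20.0% higher and 14.2% lower over all genes in view. Of 11 further bZIP partners measured, 1 rose, 2 fell and 8 did not pass, with a median log2 difference of 0.03. ATF2, a CRE-binding partner of JUN, averaged 47.7 in sh-PNO1 and 127 in sh-Ctrl (log2 difference −1.41 ± 0.05 SE, adjusted p = 2.06e-06), but only 2 of its 5 probe sets fell, the 5 ran up to 0.14, and without _x_at and _s_at probe sets it did not pass (adjusted p = 0.783). Its relative ATF7 changed by −0.32 with 1 of 5 probe sets lower, while the mean of the 5 stood at −0.06 (adjusted p = 0.25). BATF3, a bZIP partner of JUN in immune cells, rose by 0.20, a call lost in 4 of 16 alternatives (adjusted p up to 0.0642). FOSB, the remaining FOS gene, stood at 0.24 (adjusted p = 0.0669) and passed in 6 of 16 alternatives.

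Of 35 other immediate early genes measured, 17 rose, 7 fell and 11 did not pass, with a median of 0.13. The polo-like kinase PLK2 rose by 1.14 ± 0.05 SE (504 in sh-PNO1, 229 in sh-Ctrl, 4 of 4 probe sets). TNFAIP3, a feedback inhibitor of NF-kB signalling, rose by 0.69 (2 of 2, the other at 0.18) and SRF, the factor that binds CArG boxes, by 0.62 (1 of 2, the other at 0.07). TNFAIP3 averaged 38.5 in sh-PNO1, and its 3 sh-Ctrl values were identical at 23.9, so its spread may be understated. The survival factor gene MCL1 changed by −0.93 (367 in sh-PNO1, 699 in sh-Ctrl, 2 of 6 probe sets lower), CCN2, a matricellular protein gene, by −0.68 (3 of 3) and the NF-kB inhibitor gene NFKBIA by −0.48 (3 of 3). Without probe sets of the suffixes _x_at and _s_at MCL1 stood at 0.17 (adjusted p = 0.0703) and SRF lost its call (adjusted p = 0.497).

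Of 16 kinases and transcription factors upstream, 5 rose, 3 fell and 8 did not pass, with a median of 0.07. MAP2K4, which phosphorylates the JUN N-terminal kinases, rose by 0.36 ± 0.05 SE (618 in sh-PNO1, 481 in sh-Ctrl, 4 of 4 probe sets). RPS6KA5, a histone and CREB kinase, rose by 0.72 (3 of 4), and MAPK8, which encodes JNK1, by 0.28 on 1 of 3 probe sets (mean of the 3, 0.09, adjusted p = 0.11). CREB1 changed by −0.59 (6 of 7 probe sets lower), the ribosomal S6 kinase gene RPS6KA3 by −0.52 (2 of 2) and MAPK9, which encodes JNK2, by −0.30, while the mean of its probe sets stood at 0.10 (adjusted p = 0.168).

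Of 10 genes of JUN protein turnover, 2 rose, 1 fell and 7 did not pass, with a median of 0.08. The scaffold CUL4B rose by 0.48 (3 of 3 probe sets). COP1, a ubiquitin ligase for JUN, changed by −0.20 (2 of 2) and ITCH, another, by 0.18 with 1 probe set higher and 1 lower. COP1 did not pass in 4 of 16 alternatives, with an adjusted p of up to 0.0706. ITCH failed in 5 of 16, and the mean of its probe sets stood at −0.01. FBXW7, which marks phosphorylated JUN for degradation, stood at −0.04 (adjusted p = 0.643).

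Of 23 textbook AP-1 target genes measured, 2 rose, 9 fell and 12 did not pass, with a median of −0.09, against shares over all genes of 20.0% higher and 14.2% lower. The urokinase receptor gene PLAUR averaged 126 in sh-PNO1 and 183 in sh-Ctrl (log2 difference −0.53 ± 0.04 SE, 5 of 5 probe sets lower), urokinase itself, PLAU, 320 and 436 (−0.44 ± 0.04 SE, 3 of 3), and cyclin D1, CCND1, 1119 and 1468 (−0.39 ± 0.04 SE, 4 of 4). Of the rest that fell, HBEGF and MT2A were lower in 1 of 2 probe sets and CXCL8 in 1 of 3. CD44 was lower in 7 of 10, VIM in 2 of 2 (brightest at 12.3 in sh-PNO1 and 14.8 in sh-Ctrl) and TGFB1 in its only 1. Without _x_at and _s_at probe sets HBEGF and CXCL8 did not pass (limma adjusted p = 0.273 and 0.931), and TGFB1 lost its call in 2 of 16 alternatives. The 2 that rose were CLU, a secreted chaperone (0.44, 1 of 2 probe sets), and the cytokine gene IL6 (0.22, at 12.9 in sh-PNO1 and 11.1 in sh-Ctrl), whose call was lost in 4 of 16 alternatives. The collagenase genes MMP1 (6.13 and 6.17) and MMP13 (12.3 and 11.1) were dim in both groups and did not pass.

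**Figure D4:**
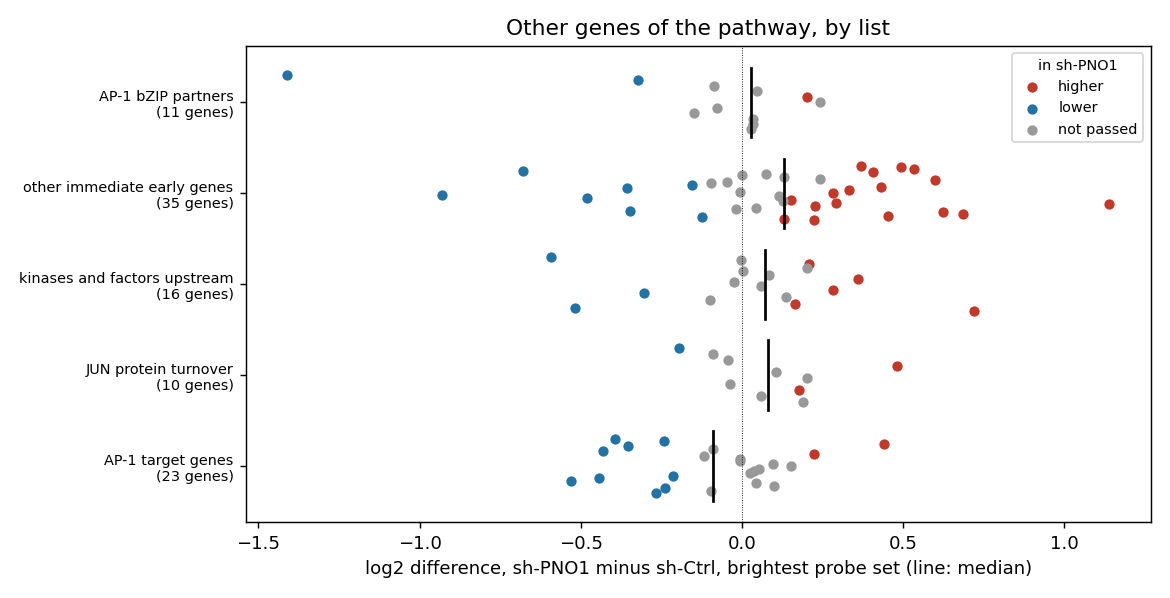
Log2 difference, sh-PNO1 minus sh-Ctrl, of each measured gene of 5 lists (brightest probe set), coloured by its limma call, with the median of each list as a black line. The medians run from −0.09 for AP-1 target genes to 0.13 for other immediate early genes, and each list holds genes on both sides of 0.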

How the data were processed

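Gene expression was measured in 6 samples. Biotinylated cRNA had been made from 100 ng RNA, according to the protocols in the labels. The deposited files give linear intensities, made by the authors with RMA, per the submitters' processing notes, which summarises probes into probe sets and normalises between arrays; of its version and the genome build nothing is stated in the sources used here. Array medians were 25.6 to 25.9. The number of arrays limits the precision. Changes are relative to the other probe sets of an array.

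Log2 was taken and all 49293 probe sets that are not controls entered limma 3.58.1 (lmFit, eBayes) under R 4.3.3, sh-PNO1 minus sh-Ctrl, with Benjamini-Hochberg adjustment over all of them and a threshold of 0.05. Probe sets were named by the platform's gene table (44988 with 1 symbol, 1832 with several, 2473 not listed). Lists used 1 probe set a gene, the brightest of 18132 genes, and received no set test. The fit was checked on simulated data.

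The members and lists were chosen with earlier results of these data known. By rule the text names every member and, in each list, up to 3 genes higher and 3 lower with the smallest adjusted p. FOSB, FBXW7, MMP1, MMP13, HBEGF, MT2A, CXCL8, CD44, VIM and TGFB1 were named after their values were seen. So were COL1A1, PTPRC, VWF and CD68 among the markers, and ITGB4, EREG, ZFP36L1, ZFP36L2, NR4A3, BTG1, SGK1 and MAP2K1. Every epithelial marker of the list was named. Alternatives were array weights, a robust prior with a mean-variance trend, a block for replicate number, a second quantile normalisation, equal array medians, equal housekeeping means, the dimmest 30% left out, 1 probe set a gene, probe sets averaged, no _x_at or _s_at probe sets, log2(intensity + 16), and each array left out. Pairs of samples with the same replicate number had deviations from their group means that correlated at −0.04, 0.10 and −0.03.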

Additional observations from a re-analysis of the deposited data

How the results depend on the processing

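With 1 probe set a gene, 4 members were higher and 3 lower (3619 and 2566 of all 18132 genes), with probe sets averaged 4 and 3 (3407 and 2709), and without _x_at and _s_at probe sets 8 and 3 of 21 (4575 and 4136 of all 34921). Without the dimmest 30% of probe sets, 15 of 33 member probe sets were higher and 5 lower (7731 and 6551 of all 34505). Leaving out 1 array gave 13 to 15 member probe sets higher and 3 to 4 lower, against 16 and 5; over all probe sets it gave 5614 to 6274 higher and 5220 to 5662 lower, against 7306 and 6485. PNO1 passed in each alternative. With the replicate number as a block 15 member probe sets were higher and 4 lower, and 26 and 21 listed genes, against 27 and 22 of 93 without it; the same-numbered samples did not deviate together, so the number was not taken as a pairing. Equal housekeeping means moved the median of all probe sets to 0.05, against 0.01, gave 17 member probe sets higher and 4 lower, and 9470 higher and 5341 lower over all.

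With probe sets averaged, JUN minus another member stood at 0.98 for FOSL1, 0.39 for FOSL2, 0.54 for ATF3 and 1.30 for JDP2. No member that passed changed direction in these alternatives. Among listed genes averaging turned MAPK9 to 0.10 and ITCH to −0.0099. Without _x_at and _s_at probe sets ZFP36L1 stood at −0.38, ZFP36L2 at −0.011, NR4A3 at −0.083, MCL1 at 0.17, BTG1 at −0.026, SGK1 at 0.031, MAP2K1 at −0.18 and CXCL8 at 0.010, each of the opposite sign to its brightest probe set. The cause was not tested.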

Other observations

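Probe sets of a gene disagreed in direction for some listed genes, which are given here as values chosen after they were seen. The 4 probe sets of MAPK9, which encodes JNK2, ran from −0.82 to 1.91 on the log2 scale (sh-PNO1 minus sh-Ctrl), with 3 lower and 1 higher past the threshold. The 6 of ZFP36L1, which encodes an RNA-decay factor, ran from −0.38 to 0.31, with 2 higher and 1 lower.

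For other target genes the brightest probe set changed least. ITGB4, the beta 4 integrin gene, stood at −0.12 (limma adjusted p = 0.171) on its brightest probe set, while 6 of its 8 probe sets passed as lower and their mean changed by −0.36 (adjusted p = 0.000245). EREG, the epiregulin gene, stood at −0.09 (adjusted p = 0.183) with 3 of 4 probe sets lower and a mean of −0.26 (adjusted p = 0.00105).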
